A study of Mus musculus with 14 samples.

Results

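The cyclin kinase inhibitor genes and the Gadd45 genes were followed across sorted fractions of FDCPmix cells. They are 10 genes, Cdkn1a, Cdkn1b, Cdkn1c, Cdkn2a, Cdkn2b, Cdkn2c, Cdkn2d, Gadd45a, Gadd45b and Gadd45g, out of 32476 genes tested. The genes were chosen by name, not by a cutoff on a measured value, but with earlier results of these data known. The array carried 12 probes for them among 41174 probes, 2 each for Cdkn1b and Gadd45b and 1 for each other gene. FDCPmix is an established multipotent progenitor line of mouse blood, labelled as bone marrow, which needs interleukin-3 to grow. All cells came from maintenance culture with 20% horse serum and 2% WEHI medium as the source of interleukin-3, and no other treatment, genotype or time is given. RNA was measured on 14 single-colour arrays from 150 ng of total RNA each: Kit-Gr1- (3 arrays), Gr1+ (3), Kit+Gr1-Sca1hi (3), Kit+Gr1-Sca1lo (3) and unfractionated cells (2). Kit is the receptor for stem cell factor, Gr1 a surface antigen of granulocytes, and Sca1 the product of Ly6a. The design text calls the replicates biological, all came from this 1 line, and the fractions are defined by surface antigens alone.

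Cyclin kinase inhibitors slow or stop the cell cycle by binding kinases that drive it. The Ink4 proteins (from Cdkn2a, Cdkn2b, Cdkn2c and Cdkn2d) bind Cdk4 and Cdk6 and keep them from cyclin D, whereas the Cip/Kip proteins (from Cdkn1a, Cdkn1b and Cdkn1c) bind complexes of cyclins with several kinases. Gadd45 proteins are small stress-induced proteins that bind Map3k4, Cdk1 and Pcna and take part in growth arrest and in p38 and JNK kinase signalling. In bone marrow, precursors of granulocytes and red cells leave the cell cycle as they mature, and inhibitors of both families are known to act there.

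Levels are given as the log2 processed signal minus the 75th percentile of the same array, so 0 is a fairly bright probe and a step of 1 is a doubling. Levels of different genes come from different probes and were not compared with each other. Differences are log2 values with the standard error from limma after ±, and a gene was called, or said to rise or fall, at a difference of 2-fold or more with a Benjamini-Hochberg adjusted p, taken over all genes, below 0.05. All 168 member probe values were well above background and 0 were saturated, but the only spot of Cdkn2b on Kit+Gr1-Sca1hi replicate 1 was flagged as an outlier, so that fraction has 2 values for this gene. Cdkn1a, Cdkn1b and Cdkn2a each have a probe printed on 10 spots, and the coefficient of variation between spots of 1 array ran from 1.59% to 10.5%.

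The arrays did not all behave alike. For 10 of them the median processed signal was 122 to 253 scanner units. Gr1+ replicate 3 had a median of 294, Kit+Gr1-Sca1hi replicate 3 of 801, Kit+Gr1-Sca1lo replicate 3 of 330 and unfractionated replicate 1 of 5180. Signals on these last 4 were also compressed, with an interquartile range of 1.78 to 3.42 on the log2 scale against 4.17 to 4.92 on the other 10. The differences of each member from Kit+Gr1- cells, and the counts over gene lists, are therefore given with and without these 4 arrays. Without them Gr1+ and each Kit+Gr1- fraction keep replicates 1 and 2 only, and unfractionated cells replicate 2. That 1 unfractionated array then adds nothing to the spread. This setting and leaving out both unfractionated arrays are thus not independent checks. Kit-Gr1- cells keep all their arrays. For Cdkn2b, Kit+Gr1-Sca1hi then has 1 value, as its replicate 1 was flagged. The fit pools the spread over all 5 groups, so the unfractionated arrays add to every standard error. Differences from Kit+Gr1- cells are also given without both of them, except Cdkn1a, Cdkn1b and Cdkn2c, and Cdkn2a and Cdkn1c in Kit-Gr1- cells. The differences left out did not pass without them. The measured gate genes followed the sort in part. Kit was lower in Kit-Gr1- than in Kit+Gr1- cells (-2.21 ± 0.25, adjusted p = 0.00381), and Ly6c1 was higher in Gr1+ cells (6.74 ± 1.00, adjusted p = 0.00388). Ly6a did not overlap between Kit+Gr1-Sca1hi and Kit+Gr1-Sca1lo cells (2.32 ± 0.50) but did not pass the test (adjusted p = 1.000), and its highest mean among the sorted fractions was in Gr1+ cells.

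The promoters of Cdkn2b, Gadd45a, Gadd45b and Gadd45g are shown because Cdkn2b and Gadd45a are the members called and the 3 Gadd45 genes differed in their order over the fractions. Each window runs from 250 bases before the RefSeq start to 50 after it (GRCm38.p6), in the direction of the gene, at chr4:89310983-89311282 (minus strand), chr6:67037358-67037657 (minus strand), chr10:80929841-80930140 (plus strand) and chr13:51846425-51846724 (plus strand). Capitals mark matches on either strand to short motifs. These were TATAAA for the TATA box, CCAAT for the box of that name, GGGCGG for the GC box, AGATAA for GATA factors, TTGCNNAA for C/EBP factors, TGANTCA for AP-1 and CACGTG for the E-box.
Cdkn2b: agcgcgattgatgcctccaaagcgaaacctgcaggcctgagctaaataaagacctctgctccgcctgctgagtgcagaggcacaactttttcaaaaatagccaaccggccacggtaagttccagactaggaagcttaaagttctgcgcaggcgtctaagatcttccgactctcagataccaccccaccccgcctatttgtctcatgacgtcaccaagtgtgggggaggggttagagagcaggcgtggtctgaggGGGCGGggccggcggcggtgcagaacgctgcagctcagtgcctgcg
Gadd45a: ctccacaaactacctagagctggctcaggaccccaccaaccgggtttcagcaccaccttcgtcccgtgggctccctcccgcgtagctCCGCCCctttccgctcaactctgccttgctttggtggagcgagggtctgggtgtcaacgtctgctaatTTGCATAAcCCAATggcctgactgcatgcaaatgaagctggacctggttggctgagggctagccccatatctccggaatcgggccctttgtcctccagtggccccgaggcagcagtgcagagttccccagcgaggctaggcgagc
Gadd45b: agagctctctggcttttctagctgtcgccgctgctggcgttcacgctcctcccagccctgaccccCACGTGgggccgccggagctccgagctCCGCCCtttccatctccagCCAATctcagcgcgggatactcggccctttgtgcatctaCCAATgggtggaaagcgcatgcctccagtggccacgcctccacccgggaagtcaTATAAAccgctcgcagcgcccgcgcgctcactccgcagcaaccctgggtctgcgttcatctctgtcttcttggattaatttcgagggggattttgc
Gadd45g: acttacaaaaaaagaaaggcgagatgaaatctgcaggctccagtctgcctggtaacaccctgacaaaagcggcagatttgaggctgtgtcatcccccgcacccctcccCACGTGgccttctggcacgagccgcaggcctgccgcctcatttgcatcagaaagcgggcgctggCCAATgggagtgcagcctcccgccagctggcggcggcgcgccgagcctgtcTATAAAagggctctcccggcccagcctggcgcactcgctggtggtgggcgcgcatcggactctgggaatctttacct

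The Cdkn2b window held 1 GC box just after the start, with its first base at 5. The Gadd45a window held a GC box at -163, the C/EBP letters at -95 and CCAAT at -86, counted from the start. The Gadd45b window held an E-box at -185, a GC box at -158, CCAAT at -139 and -100 and a TATA box at -46. The Gadd45g window held an E-box at -142, CCAAT at -78 and a TATA box at -27. No match overlaps another in these windows. Of 32851 mouse promoter windows of the same length, 37.4% held CCAAT, 35.7% the GC box, 13.6% the TATA box, 11.2% the GATA letters, 10.8% the C/EBP letters, 7.81% the AP-1 letters and 7.15% the E-box. The table held 12 windows for 9 of the 10 genes, with none matched for Cdkn1c. A match is a run of letters and says nothing of binding in these cells.

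**Figure D1:**
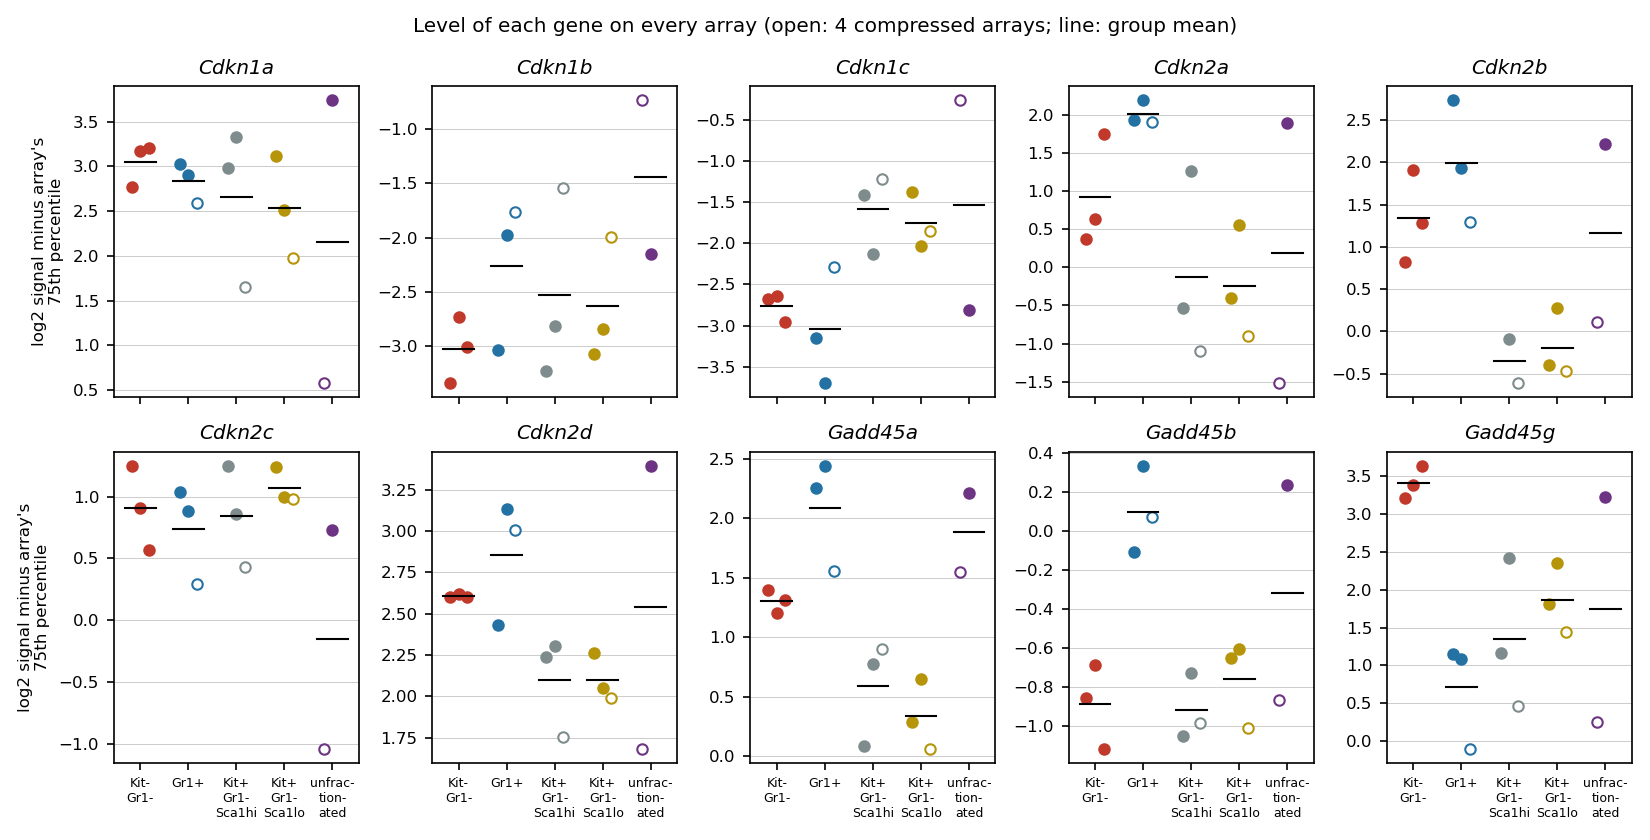
Level of each of the 10 genes on every array (vertical axis, log2 processed signal minus the 75th percentile of the array), by group along the horizontal axis. Each circle is 1 array, open for the 4 compressed arrays, and the line is the group mean. Gadd45g is high on the 3 Kit-Gr1- arrays (3.21 to 3.64) and Cdkn2b lies higher in Kit-Gr1- and Gr1+ cells than in either Kit+Gr1- fraction.

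In Gr1+ cells Cdkn2b and Gadd45a rose relative to Kit+Gr1- cells, by 4.81-fold and 3.09-fold. They were the 2 members called of 10, against 2.00% of all genes called in this comparison (1.38% higher and 0.625% lower). With arrays scaled on their medians 173 genes were called higher and 29 lower, against 448 higher and 203 lower as reported. In Kit-Gr1- cells 0 of 10 members passed the test against Kit+Gr1- cells, where 0.0677% of all genes were called (0.0554% higher and 0.0123% lower). Between Kit-Gr1- and Gr1+ cells 0 of 10 passed, against 1.59% of all genes (0.563% higher and 1.03% lower), although Gadd45g showed the largest difference of any member in any comparison (2.70). Between both Kit+Gr1- fractions 0 of 10 members and 0 genes were called by limma, with 55 genes (0.169%) and 0 members at an unadjusted p under 0.05. RNA of sorted populations was measured in bulk, so more cells that express a gene and more RNA per cell cannot be told apart.

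**Figure D2:**
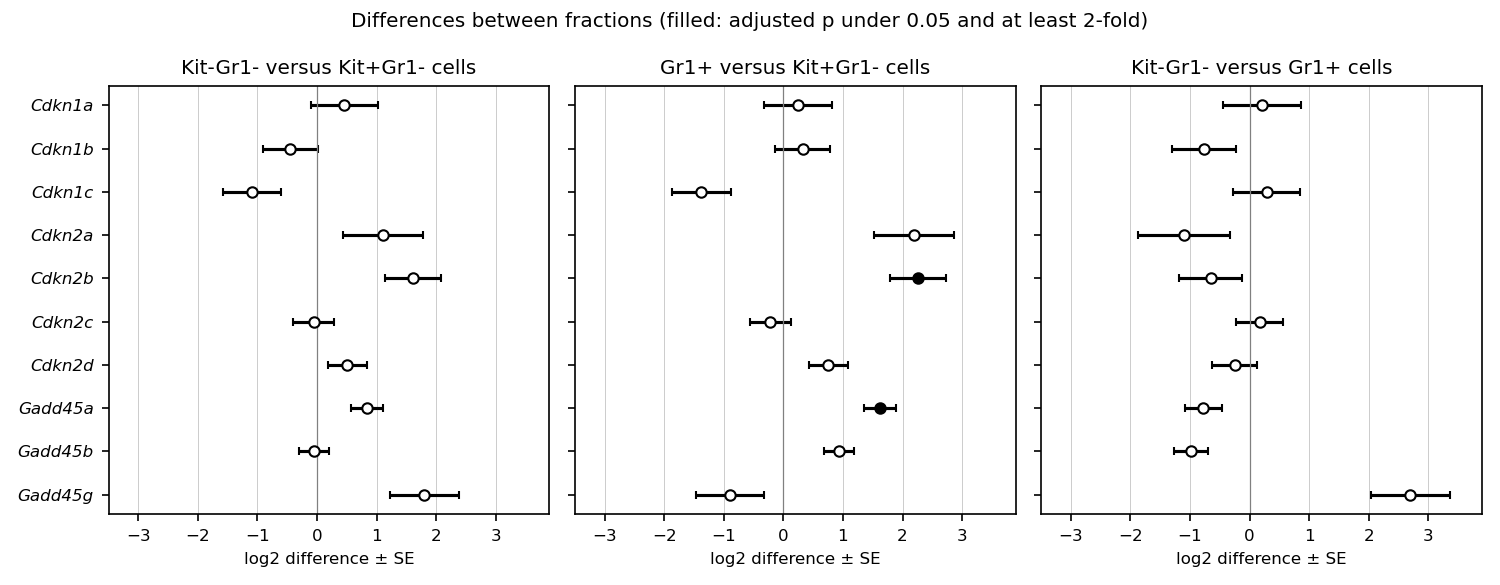
Log2 difference of each member in 3 comparisons, with the standard error from limma as bars, filled where the adjusted p was under 0.05 and the change at least 2-fold. Filled points appear for Cdkn2b (2.27) and Gadd45a (1.63) in Gr1+ against Kit+Gr1- cells and nowhere else.

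Among the Ink4 genes, Cdkn2b differed most clearly. It encodes Ink4b, an inhibitor of Cdk4 and Cdk6 that transforming growth factor beta can induce. Its levels were 0.82, 1.91 and 1.28 in Kit-Gr1- replicates 1, 2 and 3, and 2.74, 1.94 and 1.30 in those of Gr1+ cells. In Kit+Gr1-Sca1hi replicates 2 and 3 they were -0.09 and -0.61, and in Kit+Gr1-Sca1lo replicates 1 to 3 -0.40, 0.28 and -0.47. Both Kit-Gr1- and Gr1+ cells thus lay above every Kit+Gr1- array and overlapped each other. The difference in Gr1+ against Kit+Gr1- cells was 2.27 ± 0.47 (adjusted p = 0.0271, 3 against 5 arrays). Within slides 1, 2 and 3 it was 3.14, 1.66 and 1.39, with 1 Kit+Gr1- array for each. For every gene, slide 3 sets the compressed Gr1+ replicate 3 against arrays that are not compressed. Slide 4 held only Kit+Gr1- arrays, both compressed, so the slide block draws no direct comparison with other fractions from it. With the slide as a block the Cdkn2b difference was 2.09 ± 0.62 and no longer passed (adjusted p = 0.175). Without the 4 compressed arrays it was 2.41 ± 0.37 (adjusted p = 0.00403) and without both unfractionated arrays 2.27 ± 0.33 (adjusted p = 0.00122), and with outlier spots kept, a choice made after the data were seen, 2.25 ± 0.44 (adjusted p = 0.0170).

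The Cdkn2b call depended on single arrays. It was lost without Gr1+ replicate 1 (1.89, adjusted p = 0.165), Gr1+ replicate 2 (2.29, adjusted p = 0.156), Kit+Gr1-Sca1lo replicate 1 (2.21, adjusted p = 0.0747) or Kit+Gr1-Sca1lo replicate 3 (2.20, adjusted p = 0.0669). It was also lost without Kit+Gr1-Sca1hi replicate 2 (2.40, adjusted p = 0.0648), Kit+Gr1-Sca1hi replicate 3 (2.14, adjusted p = 0.0632) or Kit-Gr1- replicate 3 (2.27, adjusted p = 0.0509), against either Kit+Gr1- fraction alone, and with arrays scaled on their medians (2.32, adjusted p = 0.473). The value itself stayed between 1.89 and 2.61 over the 28 alternatives. In Kit-Gr1- against Kit+Gr1- cells Cdkn2b differed by 1.61 ± 0.47 without passing (adjusted p = 0.907), and by 1.22, 1.63 and 1.37 within slides 1, 2 and 3. Without both unfractionated arrays it was 1.61 ± 0.33 (adjusted p = 0.0735). Without the 4 compressed arrays it was 1.41 ± 0.34 (adjusted p = 0.176).

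Cdkn2a showed a difference of like size with a wider spread. It encodes Ink4a and, in another reading frame, Arf, which protects p53, and the probe's annotation does not tell the RNAs of the 2 products apart. It stood at 0.37, 0.63 and 1.75 in Kit-Gr1- cells and at 1.93, 2.19 and 1.91 in Gr1+ cells. It stood at -0.54, 1.26 and -1.09 in Kit+Gr1-Sca1hi cells and at -0.40, 0.55 and -0.90 in Kit+Gr1-Sca1lo cells. Every Gr1+ array lay above every other sorted array, while Kit-Gr1- cells overlapped both Kit+Gr1- fractions. In Gr1+ against Kit+Gr1- cells the difference was 2.20 ± 0.67 and did not pass (adjusted p = 0.164), with 2.40, 1.64 and 0.65 within slides 1, 2 and 3 and 1.65 ± 0.55 with the slide as a block (adjusted p = 0.227). It passed without both unfractionated arrays (2.20 ± 0.47, adjusted p = 0.0106) and without the 4 compressed arrays (1.84 ± 0.52, adjusted p = 0.0429). Kit-Gr1- cells differed from Kit+Gr1- cells in Cdkn2a 2.15-fold (adjusted p = 0.907), and on the log2 scale by 0.70 ± 0.46 without the compressed arrays (adjusted p = 0.977).

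Cdkn2d, which encodes Ink4d, had levels of 2.60, 2.62 and 2.60 in Kit-Gr1- cells and of 2.43, 3.14 and 3.01 in Gr1+ cells. It had 2.24, 2.31 and 1.75 in Kit+Gr1-Sca1hi cells and 2.26, 2.05 and 1.99 in Kit+Gr1-Sca1lo cells. Both Kit-Gr1- and Gr1+ arrays lay above all Kit+Gr1- arrays, but the differences of 0.51 ± 0.33 in Kit-Gr1- cells (adjusted p = 0.907) and 0.76 ± 0.33 in Gr1+ cells (adjusted p = 0.510) did not pass. Without both unfractionated arrays they were 0.51 ± 0.18 in Kit-Gr1- cells (adjusted p = 0.510) and 0.76 ± 0.18, under 2-fold, in Gr1+ cells (adjusted p = 0.0203). Without the 4 compressed arrays they were 0.39 ± 0.17 in Kit-Gr1- cells (adjusted p = 0.615) and 0.57 ± 0.19 in Gr1+ cells (adjusted p = 0.0787). Cdkn2c, which encodes Ink4c, ran from 0.29 to 1.25 over the sorted arrays and its fractions overlapped throughout. Its group means were 0.91 ± 0.34 in Kit-Gr1- cells, 0.74 ± 0.39 in Gr1+ cells, 0.85 ± 0.41 in Kit+Gr1-Sca1hi cells and 1.07 ± 0.15 in Kit+Gr1-Sca1lo cells (SD, n = 3 each). Its differences from Kit+Gr1- cells were -0.05 ± 0.34 in Kit-Gr1- and -0.22 ± 0.34 in Gr1+ cells, and without the compressed arrays -0.18 ± 0.18 and -0.13 ± 0.21, none of which passed.

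Of the Cip/Kip genes, Cdkn1c alone separated the fractions. It encodes Kip2, an inhibitor known for keeping blood stem cells quiescent in mice. Its levels were -2.68, -2.64 and -2.95 in Kit-Gr1- cells and -3.15, -3.70 and -2.29 in Gr1+ cells. They were -1.42, -2.13 and -1.22 in Kit+Gr1-Sca1hi cells and -1.38, -2.03 and -1.85 in Kit+Gr1-Sca1lo cells. All arrays of Kit-Gr1- and of Gr1+ cells lay below all Kit+Gr1- arrays. The difference was -1.09 ± 0.49 in Kit-Gr1- cells (adjusted p = 0.907) and -1.37 ± 0.49 in Gr1+ cells (adjusted p = 0.291), and neither passed. In Gr1+ cells it passed without both unfractionated arrays (-1.37 ± 0.33, adjusted p = 0.0206) and without the 4 compressed arrays (-1.68 ± 0.30, adjusted p = 0.00534), and within slides 1, 2 and 3 it was -1.75, -1.66 and -0.16. In Kit-Gr1- cells it was -1.02 ± 0.26 without the compressed arrays (adjusted p = 0.195).

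Cdkn1a, which encodes Cip1, a target of p53, was at 2.77, 3.17 and 3.20 in Kit-Gr1- cells and at 3.02, 2.90 and 2.58 in Gr1+ cells. It was at 2.98, 3.33 and 1.65 in Kit+Gr1-Sca1hi cells and at 3.11, 2.52 and 1.97 in Kit+Gr1-Sca1lo cells. All fractions overlapped, and the lowest sorted value was on a compressed array. The differences from Kit+Gr1- cells were 0.46 ± 0.57 in Kit-Gr1- cells and 0.24 ± 0.57 in Gr1+ cells, and without the 4 compressed arrays 0.06 ± 0.18 and -0.02 ± 0.20, none of which passed.

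Cdkn1b encodes Kip1, whose level is largely set by protein turnover. Its fractions overlapped throughout, with differences from Kit+Gr1- cells of -0.45 ± 0.47 in Kit-Gr1- and 0.32 ± 0.47 in Gr1+ cells, and without the compressed arrays of -0.04 ± 0.29 and 0.48 ± 0.33, none of which passed. Its processed signal was 287 scanner units on Gr1+ replicate 3, 642 on Kit+Gr1-Sca1hi replicate 3, 303 on Kit+Gr1-Sca1lo replicate 3 and 5686 on unfractionated replicate 1, the 4 compressed arrays, against 94.5 to 231 on the others. The part of this in the levels of Cdkn1b was not tested. Its second probe gave -0.70 ± 0.93 and -0.06 ± 0.93 in these comparisons, of the other sign in Gr1+ cells.

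Among the Gadd45 genes, each had its own pattern over the fractions. Gadd45a, a target of p53 that also binds the kinase Map3k4, was at 1.39, 1.20 and 1.31 in Kit-Gr1- cells and at 2.26, 2.44 and 1.56 in Gr1+ cells. It was at 0.09, 0.77 and 0.90 in Kit+Gr1-Sca1hi cells and at 0.29, 0.65 and 0.06 in Kit+Gr1-Sca1lo cells. Gr1+ cells were highest, Kit-Gr1- cells lay between, and neither overlapped any other sorted fraction. In Gr1+ against Kit+Gr1- cells Gadd45a rose by 1.63 ± 0.27 (adjusted p = 0.00675). Within slides 1, 2 and 3 it was 2.07, 1.80 and 0.78, the last with the compressed Gr1+ array. With the slide as a block it was 1.62 ± 0.32 (adjusted p = 0.0326). It was 1.90 ± 0.21 without the 4 compressed arrays (adjusted p = 0.000633) and 1.63 ± 0.23 without both unfractionated arrays (adjusted p = 0.000643). The call was kept against each Kit+Gr1- fraction alone (1.50 ± 0.31 against Sca1hi, adjusted p = 0.0382, and 1.75 ± 0.31 against Sca1lo, adjusted p = 0.0171) and was lost without Gr1+ replicate 2 (1.45, adjusted p = 0.0870). It was also lost with arrays scaled on their medians (1.65, adjusted p = 0.413) and with quantile normalization (1.51, adjusted p = 0.0536). Series matrix values, the same log2 signals left without scaling, lost it as well (1.43, adjusted p = 0.252).

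In Kit-Gr1- cells Gadd45a differed from Kit+Gr1- cells by 0.84 ± 0.27 (adjusted p = 0.907) and from Gr1+ cells by -0.78 ± 0.31 (adjusted p = 0.480). Neither passed, nor did they without both unfractionated arrays (0.84 ± 0.23, adjusted p = 0.215, and -0.78 ± 0.26, adjusted p = 0.129). Without the 4 compressed arrays the first was 0.85 ± 0.18 (adjusted p = 0.0972), and Kit-Gr1- against Gr1+ cells gave -1.05 ± 0.22 and passed (adjusted p = 0.0133).

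Gadd45b, which in mouse blood cells responds early to differentiation signals, was at -0.86, -0.69 and -1.11 in Kit-Gr1- cells and at -0.11, 0.34 and 0.08 in Gr1+ cells. It was at -1.05, -0.73 and -0.98 in Kit+Gr1-Sca1hi cells and at -0.65, -0.60 and -1.01 in Kit+Gr1-Sca1lo cells. All Gr1+ arrays lay above all other sorted arrays, and the other fractions overlapped. The difference in Gr1+ against Kit+Gr1- cells was 0.94 ± 0.25, under 2-fold, and did not pass (adjusted p = 0.0923), with 0.74, 0.94 and 0.80 within slides 1, 2 and 3. Without both unfractionated arrays it was 0.94 ± 0.18, under 2-fold as before (adjusted p = 0.00552). Without the 4 compressed arrays it was 0.87 ± 0.20, still under 2-fold (adjusted p = 0.0179). Kit-Gr1- cells differed from Gr1+ cells by -0.99 ± 0.29 (adjusted p = 0.165), and from Kit+Gr1- cells by -0.05 ± 0.25, or -0.13 ± 0.18 without the compressed arrays. Without both unfractionated arrays these were -0.99 ± 0.21 against Gr1+ cells, under 2-fold (adjusted p = 0.0135), and -0.05 ± 0.18 against Kit+Gr1- cells. The second Gadd45b probe gave 1.21 ± 0.48 in Gr1+ against Kit+Gr1- cells and -1.15 ± 0.55 in Kit-Gr1- against Gr1+ cells, the same signs, and did not pass either (adjusted p = 0.373 and 0.716 over all probes).

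Gadd45g was highest in Kit-Gr1- cells and had its lowest mean in Gr1+ cells. Its protein is induced by cytokines in blood cells and binds the same kinases. Its levels were 3.21, 3.38 and 3.64 in Kit-Gr1- cells and 1.15, 1.09 and -0.10 in Gr1+ cells. They were 1.16, 2.42 and 0.47 in Kit+Gr1-Sca1hi cells and 1.81, 2.36 and 1.45 in Kit+Gr1-Sca1lo cells. Every Kit-Gr1- array lay above every other sorted array, and Gr1+ cells overlapped Kit+Gr1-Sca1hi cells at the low end. Kit-Gr1- cells differed from Gr1+ cells by 2.70 ± 0.66 (6.48-fold), which did not pass with all 14 arrays (adjusted p = 0.0705). It was 2.05, 2.30 and 3.73 within slides 1, 2 and 3, the last with the compressed Gr1+ array. With the slide as a block it was 2.70 ± 0.66 (adjusted p = 0.0944).

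The same Gadd45g difference passed without both unfractionated arrays (2.70 ± 0.44, adjusted p = 0.00253) and without the 4 compressed arrays (2.29 ± 0.33, adjusted p = 0.00270). Leaving out either unfractionated replicate leaves that group 1 array, which adds nothing to the spread. The difference was again 2.70 with either left out, and this is no separate check from leaving out both. Leaving out the 4 compressed arrays also leaves unfractionated cells 1 array, so it is not independent of leaving out both. Against Kit+Gr1- cells Gadd45g differed by 1.80 ± 0.57 in Kit-Gr1- cells (adjusted p = 0.907) and by -0.89 ± 0.57 in Gr1+ cells (adjusted p = 1.000), and neither passed. Within slides 1, 2 and 3 the first was 1.73, 1.03 and 1.22. Without both unfractionated arrays the differences were 1.80 ± 0.38 in Kit-Gr1- cells (adjusted p = 0.0729) and -0.89 ± 0.38 in Gr1+ cells (adjusted p = 0.257). The lowest Gr1+ and the lowest Kit+Gr1- values were on compressed arrays, and without those the differences were 1.47 ± 0.27 in Kit-Gr1- cells (adjusted p = 0.0574) and -0.81 ± 0.31 in Gr1+ cells (adjusted p = 0.131).

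**Figure D3:**
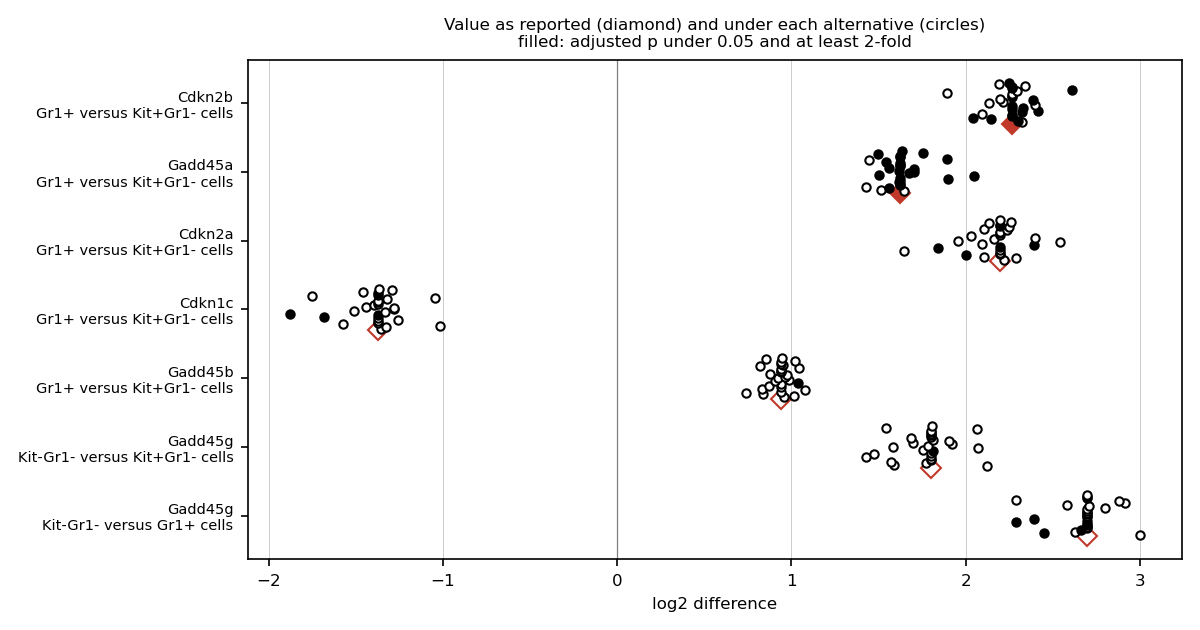
Log2 difference of 6 members in the comparison named on the vertical axis, as reported (red diamond) and under each alternative way of processing or choice of arrays (circles), filled where it passed the test. The values keep their sign throughout, while the calls come and go, as for Cdkn2b between 1.89 and 2.61.

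Taking the members as a group, 7 were higher and 3 lower in Gr1+ than in Kit+Gr1- cells by sign, with a median difference of 0.54 beside -0.04 over all genes. Of the 10, 6 had an unadjusted p under 0.05, against 8.42% of all genes, and 6 did not overlap between these groups, against 9.74%. In Kit-Gr1- against Kit+Gr1- cells 6 were higher and 4 lower, with a median of 0.48 beside -0.25 over all genes, and 5 of 10 did not overlap against 5.79% of all genes. Signs near 0 depended on the setting. In Gr1+ cells that of Cdkn1a turned with the slide as a block (-0.14), without the 4 compressed arrays (-0.02) and without Kit+Gr1-Sca1hi replicate 3 (-0.01), and that of Cdkn2c without Gr1+ replicate 3 (0.00). In Kit-Gr1- cells that of Cdkn1b turned with array weights (0.17), that of Cdkn2c under 4 of 28 alternatives (up to 0.27, with array medians) and that of Gadd45b under 6 of 28 (up to 0.27, with array medians). There 4 of 10 had an unadjusted p under 0.05, against 2.03%. In Kit-Gr1- against Gr1+ cells the median was -0.45 beside -0.22, and 4 of 10 did not overlap against 27.1% of all genes, while 3 of 10 had an unadjusted p under 0.05, against 7.09%. In Kit+Gr1-Sca1hi against Kit+Gr1-Sca1lo cells the differences ran from -0.52 ± 0.66 (Gadd45g) to 0.25 ± 0.31 (Gadd45a), and 0 of 10 did not overlap against 3.09% of all genes. The comparisons share arrays, so their values are not independent.

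The order of the fractions was not the same for all members. By group means, Gadd45a was highest in Gr1+ cells, then in Kit-Gr1-, Kit+Gr1-Sca1hi and Kit+Gr1-Sca1lo cells, and only the last pair overlapped. Cdkn2a had the same order, but beyond the first step its neighbours overlapped. Cdkn2b and Cdkn2d had their highest mean in Gr1+ cells, then Kit-Gr1- cells, then both Kit+Gr1- fractions (2.10 and 2.10 for Cdkn2d). For both genes the one step without overlap lay between Kit-Gr1- and Kit+Gr1-Sca1lo cells. For Cdkn1c it lay there too with the sign turned, for Gadd45b it lay between Gr1+ and Kit+Gr1-Sca1lo cells, and for Gadd45g between Kit-Gr1- and Kit+Gr1-Sca1lo cells. All neighbours overlapped for Cdkn1a, Cdkn1b and Cdkn2c.

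Markers of mature blood lineages moved with the same fractions. In Gr1+ against Kit+Gr1- cells 9 of 13 neutrophil markers, 4 of 5 eosinophil markers and 3 of 5 monocyte and macrophage markers rose. The summed scaled signal of the neutrophil list was 1494 to 2104 in Gr1+ cells, against 103 to 240 in Kit+Gr1-Sca1hi and 131 to 364 in Kit+Gr1-Sca1lo cells. That of the eosinophil list was 108 to 283 in Gr1+ cells, against 0.504 to 3.14 in Kit+Gr1-Sca1hi and 0.479 to 3.29 in Kit+Gr1-Sca1lo cells. In Kit-Gr1- against Kit+Gr1- cells 5 of 9 erythroid markers rose, and the summed signal of that list was 37.3 to 59.1 in Kit-Gr1- cells, against 8.06 to 11.7 in Kit+Gr1-Sca1hi and 12.3 to 16.3 in Kit+Gr1-Sca1lo cells. Mast cell and basophil markers had medians above 0 in both fractions where Cdkn2b was higher. Of 6 measured, 1 rose in Gr1+ cells (Cd200r3, 3.45 ± 0.80, adjusted p = 0.0437) and 0 in Kit-Gr1- cells, with medians of 1.70 and 1.27. Their summed signal was 143 to 324 in Kit-Gr1- and 212 to 437 in Gr1+ cells, against 75.3 to 204 in Kit+Gr1-Sca1hi and 82.4 to 147 in Kit+Gr1-Sca1lo cells, so that Kit-Gr1- cells overlapped both Kit+Gr1- fractions. Mcpt8, a basophil protease of this list, is also the gene most alike to Cdkn2b over the sorted arrays. Of 5 megakaryocyte markers Gp1ba rose in Kit-Gr1- cells (1.96 ± 0.25, adjusted p = 0.00719). Gp1ba fell (-1.71 ± 0.25, adjusted p = 0.00348) and Vwf rose (2.82 ± 0.55, adjusted p = 0.0159) in Gr1+ cells. The summed signal of that list was 58.5 to 113 in Kit-Gr1- and 21.5 to 38.8 in Gr1+ cells, against 17.0 to 37.8 in Kit+Gr1-Sca1hi and 26.8 to 42.5 in Kit+Gr1-Sca1lo cells. Of 9 lymphoid markers 1, Lck, fell in Gr1+ cells, and of 6 stem and progenitor markers 0 passed in either fraction. Without the 4 compressed arrays 11 of 13 neutrophil and 4 of 6 mast cell and basophil markers rose in Gr1+ cells, and 6 of 9 erythroid and 3 of 5 megakaryocyte markers in Kit-Gr1- cells. Each measured marker of these lists was above background on at least 1 array of every group. All groups but Kit-Gr1- include a compressed array, on which 90.7% to 99.5% of all spots were well above background. This therefore says little of detection in those groups. The part of these lineages in the levels of the inhibitor and Gadd45 genes was not tested.

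Other genes of the pathway were read from 8 lists, which share Ccnd1, Ccnb1 and Cdk1 between some of them. Of 18 cyclins and kinases that the inhibitors act on, 0 passed in any comparison, with a median of -0.32 in Gr1+ against Kit+Gr1- cells and 0.04 in Kit-Gr1- against Kit+Gr1- cells. Of 16 measured pocket proteins and E2F factors, which hold or drive entry into S phase, 0 passed, with medians of -0.27 and 0.08. Of 19 dividing cell genes, such as the replication licensing genes of the Mcm family, 0 passed. In Gr1+ against Kit+Gr1- cells 18 had a negative sign, with a range of -0.92 to 0.03 and a median of -0.50 beside -0.04 over all genes. A like count of signs was seen in Kit+Gr1-Sca1hi against Kit+Gr1-Sca1lo cells, where 0 genes were called. There 17 were negative, with a median of -0.22, so the shared sign is not particular to Gr1+ cells. In Kit-Gr1- against Kit+Gr1- cells the dividing cell genes ran from -0.20 to 0.18.

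Among 20 genes listed as other cell cycle exit genes, 2 rose in Gr1+ against Kit+Gr1- cells, with a median of 0.62 over the list. That list also holds Ccnd1, which encodes a cyclin and is no exit gene. Cables1, which encodes a protein that links cyclin-dependent kinases to kinases that phosphorylate them, rose by 2.68 ± 0.46 (adjusted p = 0.00828), and within slides 1, 2 and 3 by 3.01, 2.46 and 3.02. Mxi1, which encodes a partner of Max that opposes Myc, rose by 1.25 ± 0.28 (adjusted p = 0.0345). In Kit-Gr1- against Gr1+ cells Cables1 fell, with a difference of -3.54 ± 0.53 (adjusted p = 0.00410). Among 17 partners and downstream kinases of Gadd45 proteins 1 rose in Gr1+ cells, Mapk13, a p38 kinase, by 2.49 ± 0.33 (adjusted p = 0.00207). In Kit-Gr1- against Gr1+ cells Mapk13 fell, with a difference of -2.89 ± 0.38 (adjusted p = 0.00198).

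Of 25 measured genes of p53 and its targets, 0 passed in any comparison, with medians of 0.08 in Gr1+ and 0.38 in Kit-Gr1- against Kit+Gr1- cells. Of 25 regulators that set inhibitor gene expression, such as Polycomb proteins, Foxo factors and Smad proteins, 0 passed, with medians of 0.00 and -0.08. Of 9 measured genes of inhibitor protein turnover 0 passed, with medians of -0.10 and 0.16. Between both Kit+Gr1- fractions 0 genes of any list passed.

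More list genes passed without the 4 compressed arrays, a count made after the data were seen. There 2012 of 29240 genes were called in Gr1+ against Kit+Gr1- cells. Among them 4 dividing cell genes fell in Gr1+ cells (Mcm2, Rrm1, Top2a and Tyms), with a median of -0.79 over that list. The 4 called exit genes were Btg1, Cables1, Mxi1 and Phlda1, all higher. Of the other lists 0 to 2 genes passed in Gr1+ cells, and in Kit-Gr1- against Kit+Gr1- cells 1 gene of any list passed, Rb1, which was higher.

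**Figure D4:**
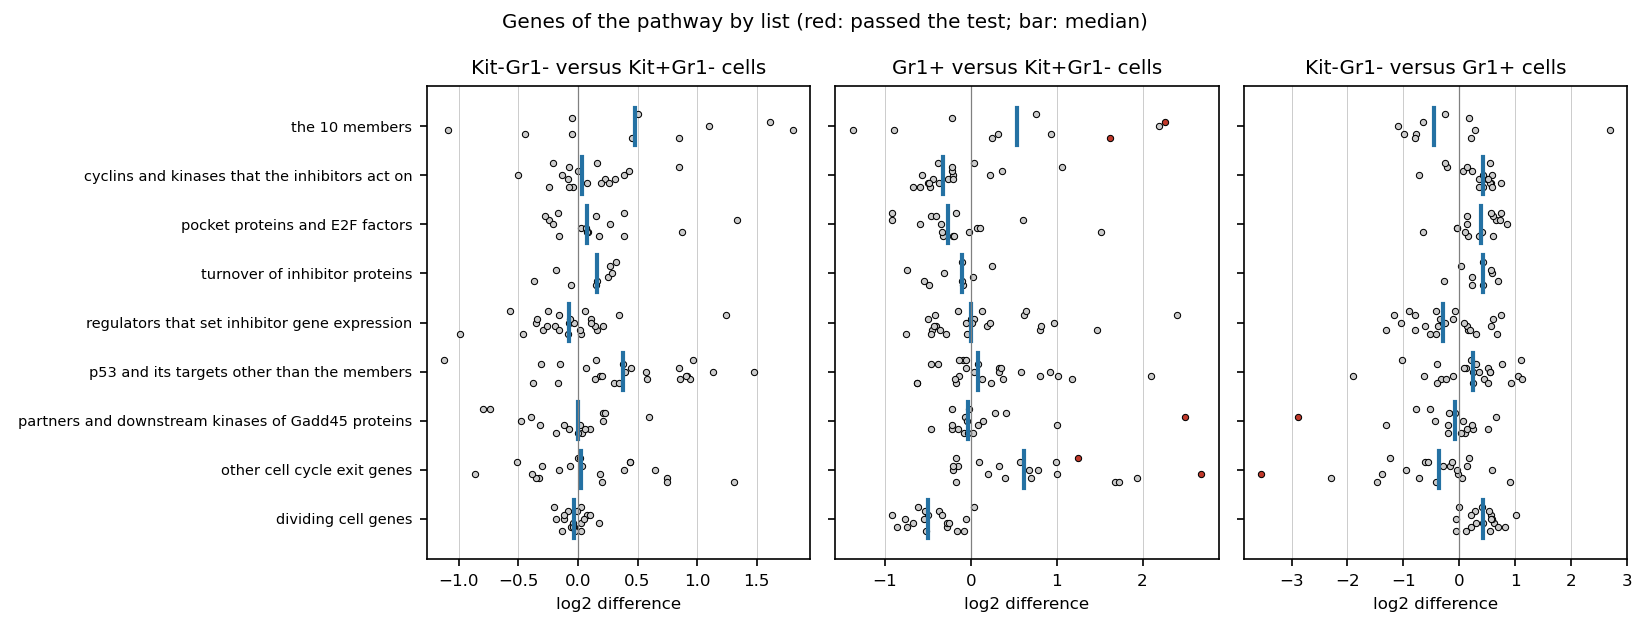
Log2 difference of every measured gene (circles) in 3 comparisons for the 10 members and the 8 lists on the vertical axis, red where the gene passed the test, with the median as a blue bar. With all 14 arrays, red points besides the members appear only for Cables1, Mxi1 and Mapk13, and the dividing cell genes lie around a median of -0.50 in Gr1+ against Kit+Gr1- cells.

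Genes most alike to the called members were found by Pearson correlation of levels over the sorted arrays among 16461 genes with a symbol. For Cdkn2b, over 11 arrays, these were Mcpt8 (r = 0.972), Furin (r = 0.970) and Aff4 (r = 0.968). For Gadd45a, over 12 arrays, they were Atp6v1a (r = 0.969), Ralb (r = 0.962) and Akr1c18 (r = 0.950). All these points share arrays, slides and scaling, and the values are a description.

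Unfractionated cells gave no steady picture. Replicate 1, a compressed array, lay below all sorted arrays for 4 members and above them for 2, and within their span for the other 4. Replicate 2 lay within the span for 8 members and above it for Cdkn1a (3.74) and Cdkn2d (3.40). For Gadd45g the 2 arrays stood at 0.25 and 3.23, and for Cdkn2b at 0.12 and 2.22, far apart within the group.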

How the data were processed

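Per the file headers, Agilent Feature Extraction 10.1.1.1 made the deposited intensity used here, the processed signal of each spot, which is background-subtracted and detrended within its array. The unprocessed intensity and local background, also deposited, served for 1 alternative. The deposited series matrix holds log2 values, checked to equal the log2 processed signal of the same spot (largest difference 5e-09), unscaled and uncentred. The array's header names mm8 as the build, so gene names came from RefSeq (GRCm38.p6) by transcript accession, without coordinates, for 23374 of 41174 probes. Promoter windows came from RefSeq on GRCm38.p6.

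From the log2 processed signal each array's 75th percentile was subtracted. Spots of a probe were averaged without outlier-flagged spots (0.345% of values). A probe was kept if well above background on at least 3 of 14 arrays. The kept probe with the highest mean stood for its gene. This left 32476 genes, 16462 with a symbol. All 14 arrays in 5 groups entered 1 limma fit (limma 3.58.1, R 4.3.3, lmFit and eBayes with trend, two-sided), with 9 residual degrees of freedom. Both Kit+Gr1- fractions were averaged with equal weight. The script was tested on simulated data. Figures were drawn with matplotlib 3.10.9 and tables made with pandas 2.3.3 and numpy 2.4.6 under Python 3.11.15. The number of arrays limits the precision.

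The array positions give 4 slides, with replicate 1 of the 4 fractions on slide 1. Slide 2 held replicate 2 of Kit+Gr1-Sca1lo, Kit-Gr1- and Gr1+ cells and unfractionated replicate 1. Slide 3 held replicate 2 of Kit+Gr1-Sca1hi, replicate 3 of Kit-Gr1- and Gr1+ cells and unfractionated replicate 2. Slide 4 held only replicate 3 of both Kit+Gr1- fractions, both compressed arrays. It gives no direct comparison with Gr1+ or Kit-Gr1- cells. Alternatives were the scaling, background correction, dim probe filter, probe rule, slide and replicate blocks, array weights and arrays left out. Same-numbered replicates deviated together between Gr1+ and both Kit+Gr1- fractions (correlation of deviations 0.62 to 0.87) and between both Kit+Gr1- fractions (0.68 to 0.85). With Kit-Gr1- cells it ran from -0.23 to 0.21. Replicate 3 was a compressed array in Gr1+ and both Kit+Gr1- fractions but not in Kit-Gr1- cells. The part of compression in these correlations was not tested, so they do not show that same-numbered replicates are pairs. The fit as reported used no pairs, and the replicate block, an alternative, covered all arrays.

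The members, lists and tests were chosen with earlier results of these data known. Every member was named in each comparison. From each list up to 3 called genes were named. For each called member the 3 genes most alike over the sorted arrays were named.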

Additional observations from a re-analysis of the deposited data

Results flagged for a closer look

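Gadd45g lay on opposite sides of the Kit+Gr1- mean in Kit-Gr1- and Gr1+ cells. Neither difference from Kit+Gr1- cells passed the limma test (1.80 ± 0.57 in Kit-Gr1- and -0.89 ± 0.57 in Gr1+ cells), and Gr1+ arrays overlapped Kit+Gr1- arrays. On all 3 Kit-Gr1- arrays its level (3.21, 3.38 and 3.64) lay above the Kit+Gr1- mean of 1.61, and on all 3 Gr1+ arrays (1.15, 1.09 and -0.10) below it. The gap between both differences, Kit-Gr1- minus Gr1+, was 2.70 ± 0.66 on the log2 scale. It was tested directly as Kit-Gr1- against Gr1+ cells and did not pass, with an adjusted p of 0.0705 by limma with all 14 arrays.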

How the results depend on the processing

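In Gr1+ against Kit+Gr1- cells 2 members and 651 genes were called. Other settings gave 0 members and 202 genes (array medians), 1 and 591 (quantile normalization) and 1 and 762 (the slide as a block). They gave 1 and 325 (Kit+Gr1-Sca1hi alone), 1 and 421 (Kit+Gr1-Sca1lo alone), 4 and 1345 (without both unfractionated arrays) and 5 and 2189 (array weights). Without the 4 compressed arrays they were 4 and 2012. There 29240 genes were tested in each comparison, against 32476 in the other settings given here. Leaving out 1 array gave 0 to 4 members and 114 to 1349 genes. In Kit-Gr1- against Kit+Gr1- cells, with 0 members and 22 genes, these were 13 genes (quantile normalization, and series matrix values without scaling), 0 genes (Kit+Gr1-Sca1lo alone), 142 (without compressed arrays), 106 (without unfractionated arrays), 4 members and 770 genes (array weights), and 0 members and 0 to 111 genes without 1 array. In Kit-Gr1- against Gr1+ cells, with 0 members and 517 genes, they were 191 genes (array medians). Of the members Gadd45g alone was called with quantile normalization (416 genes), series matrix values (405 genes) and the replicate block (670 genes). The counts were 2 and 1819 (without compressed arrays), 1 and 1276 (without unfractionated arrays) and 3 and 1955 (array weights). Without 1 array they were 0 to 1 members and 151 to 1283 genes. Between both Kit+Gr1- fractions array weights gave 15 genes, and each other setting 0. The causes were not tested. The replicate block kept both member calls in Gr1+ against Kit+Gr1- cells (Cdkn2b 2.32, adjusted p = 0.0125, and Gadd45a 1.63, adjusted p = 0.00456). For Gadd45g in Kit-Gr1- against Gr1+ cells, where same-numbered replicates hardly deviated together (correlations 0.04 to 0.19), it gave 2.70 (adjusted p = 0.0233).

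Of 1080 member values under alternatives, 27 gained a call, 15 lost one and 1038 did neither. No called value changed sign, and 52 values that passed neither way did. Series matrix values moved the median of all genes in Gr1+ against Kit+Gr1- cells to -0.23, against -0.04 as reported, and the slide block to 0.19. In Kit-Gr1- against Kit+Gr1- cells that median was -0.48 with series matrix values and 0.07 with array medians, against -0.25 as reported, and quantile normalization called 12 genes higher and 1 lower, against 18 and 4 as reported.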
